A study of Mus musculus with 24 samples.

Results

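The RNA levels of 35 DNA repair and checkpoint genes were followed in mammary tissue of PyMT and FVB mice from week 6 to week 12. The genes were taken by name, as the rows of the count table whose Ensembl identifiers carry the listed symbols in GENCODE M1, and all 35 were found among the 37991 genes of the table. They comprised 9 genes of homologous recombination, 8 of the Fanconi anemia pathway, 4 genes for DNA helicases, an exonuclease and a mismatch repair protein, 8 for checkpoint kinases and their partners, 4 for sensors of DNA breaks and 2 for the repair of single-strand breaks. PyMT mice were F1 females heterozygous for a polyoma middle T transgene in the FVB strain, in which the MMTV promoter drives the oncoprotein in mammary epithelium, and FVB females of the same age without the transgene were the controls. Mammary tissue of 3 PyMT and 3 FVB mice was sequenced at each week, giving 24 samples in 8 groups, and the PyMT tissue was labelled by its lesion: hyperplasia (week 6), adenoma/MIN, for mammary intraepithelial neoplasia (week 8), early carcinoma (week 10) and late carcinoma (week 12). No treatment was given to either genotype in the labels.

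Cells copy their DNA once per division, and the replication fork is the place where most breaks and stalled structures arise. Homologous recombination mends double-strand breaks from the sister copy, the Fanconi anemia proteins unhook crosslinked strands, and the ATM and ATR kinases pass the alarm to Chek1 and Chek2, which halt the cell cycle. Many of these genes are transcribed as cells enter S phase, while others, such as the kinases themselves, are present in resting cells too, and inherited loss of several of them is known for raising the risk of breast cancer.

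Total counts ran from 6969375 to 13516601 per sample. In 13 of the 24 libraries (6 PyMT and 7 FVB) the number of genes by count peaked at 8 to 25 reads, called packets here, and why low counts came in such steps was not tested. The FVB week 10 replicate 3 library stood furthest apart: 4.40% of 3799 genes with a middling level had no read there, and of the members Brca1, Bard1, Brip1, Fancd2, Fancl, Exo1 and Chek1 had none. Rad51ap1 had no read in FVB week 6 replicate 1, and no member was at 0 in a PyMT library. The tissue differed in makeup beside the transgene. Summed normalized counts (counts divided by size factors) of 10 proliferation markers ran from 7256 to 13661 in PyMT and from 336 to 7594 in FVB samples, and 8 luminal epithelial markers from 21161 to 40310 and from 4341 to 19108. Sums of 8 adipocyte markers ran from 1377 to 15798 in PyMT and from 45919 to 132540 in FVB, those of 6 fibroblast markers from 15630 to 34400 and from 40557 to 144850, and those of 10 skeletal muscle markers from 0 to 36071 and from 81.9 to 639450. The part of this makeup in the results that follow was not tested, and in bulk tissue fewer cells of a type and less RNA per cell cannot be told apart.

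The repair and checkpoint genes were mostly higher in PyMT tissue. All 35 passed the filter on low counts (a CPM of 1 or more in 12 or more of the 24 samples, CPM being counts scaled to the library), which left 14918 genes. Over the mean of the 4 weekly PyMT against FVB differences, 21 of the 35 were higher in PyMT at an adjusted p under 0.05, where 23.6% of all genes tested were, and 2 were lower, where 27.4% of all genes were. The median log2 fold change of the members was 0.78, against -0.03 over all genes tested, and 33 of the 35 had a positive value. The largest differences among the 21 were those of Exo1 (5.39-fold), Chek1 (3.86-fold), Fanci (3.79-fold), H2afx (3.37-fold) and Fanca (3.33-fold). Fancc and Wrn were the 2 lower genes. With library size as the only scaling, 28 members were higher and 0 lower. That scaling also moved the median of all genes tested up to 0.26, and the share of all genes called under it is not given here. At each week by itself, with 3 samples against 3, 0 to 10 members were called higher by edgeR, beside 3.57% to 7.75% of all genes. No member passed a test of a change between weeks, where at most 0.00670% of all genes did.

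**Figure D1:**
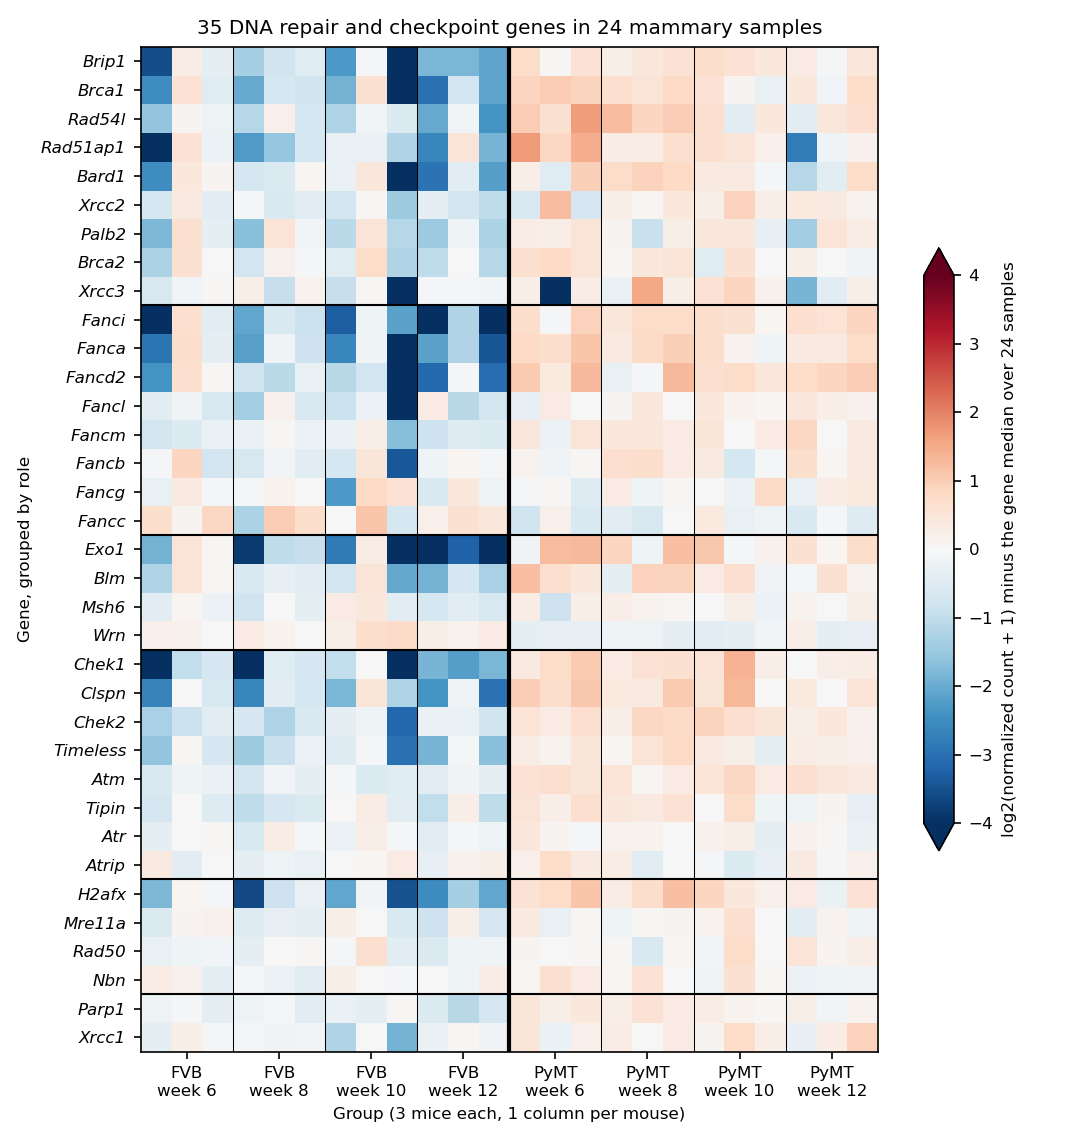
Each row is a gene and each column a mouse, and the colour gives log2(normalized count + 1) minus the gene's median over the 24 samples. Rows are grouped by role, in the order homologous recombination, Fanconi anemia, helicases with exonuclease and mismatch repair, checkpoint, break sensing and single-strand breaks. PyMT columns are mostly red, with blue in the rows of Wrn and Fancc and a dark blue cell for Xrcc3 in PyMT week 6 replicate 2, and FVB columns differ from mouse to mouse, with dark blue in FVB week 10 replicate 3, where 7 of the genes had no read.

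Of the 9 homologous recombination genes, 5 were higher in PyMT (23.6% of all genes tested were) and none was lower (27.4% were) by the mean over 4 weeks. Their median log2 fold change was 0.98. Brip1, a DNA helicase that binds Brca1, had the largest value of the group. Its normalized counts in PyMT were 268, 166 and 240.0 at week 6, 188, 218 and 238 at week 8, 262, 241 and 212 at week 10 and 199, 149.6 and 219.9 at week 12. In FVB they were 12.8, 197 and 122 at week 6, 63.1, 90.7 and 114 at week 8, 31.6, 153 and 0 at week 10 and 44.4, 44.1 and 36.1 at week 12. The PyMT samples lay in a narrow band, and they did not overlap with FVB at weeks 8, 10 and 12, but 1 FVB mouse at week 6 reached into the PyMT range. Brip1 had a log2 fold change of 1.62 ± 0.42 (SE), adjusted p = 0.00299 (quasi-likelihood test of edgeR).

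Brca1, which with its partner Bard1 forms a ubiquitin ligase and directs broken ends into recombination, lies at chr11:101350078-101413269, reverse strand, on mm9. In PyMT its normalized counts were 435, 485 and 444 at week 6, 381, 347 and 418 at week 8, 359, 259.9 and 197 at week 10 and 319, 221 and 400.1 at week 12. In FVB they were 41.7, 356 and 173 at week 6, 58.0, 147 and 139 at week 8, 64.0, 368 and 0 at week 10 and 29.6, 139.9 and 54.7 at week 12. FVB week 6 replicate 2 and FVB week 10 replicate 2 lay among the PyMT values, the other 10 FVB samples lay below all 12 PyMT samples, and the week 10 groups overlapped. The log2 fold change of Brca1 was 1.51 ± 0.45 (SE), adjusted p = 0.00772.

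Brca2, a mediator of strand exchange in recombination, lies at chr5:151325205-151372321, forward strand, on mm9. Its PyMT counts were 430.0, 479.7 and 391 at week 6, 294, 371 and 396 at week 8, 198, 419 and 277 at week 10 and 322, 272 and 252 at week 12. Its FVB counts were 114, 423 and 270.5 at week 6, 163, 311 and 259 at week 8, 196, 459 and 120.5 at week 10 and 137, 275 and 124 at week 12. The groups overlapped at every week, and the highest FVB sample lay above 11 of the 12 PyMT samples. Brca2 did not pass the test, at a log2 fold change of 0.53 ± 0.23 (SE), adjusted p = 0.0539. It lay close to the threshold and passed in 13 of 35 alternatives, among them DESeq2 (0.52, adjusted p = 0.0481), limma's voom (0.48, adjusted p = 0.023) and the fit without FVB week 10 replicate 2 (0.71, adjusted p = 0.00704), and its adjusted p ran from 0.00704 to 0.103.

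Xrcc3, which acts in strand exchange, had the smallest value of the recombination genes. Its PyMT counts were 55.2, 1.04 and 58.4 at week 6, 39.1, 139.7 and 55.9 at week 8, 71.2, 87.0 and 53.7 at week 10 and 12.3, 34.2 and 55.5 at week 12. Its FVB counts were 30.1, 43.2 and 48.5 at week 6, 55.5, 24.4 and 52.0 at week 8, 24.4, 49.1 and 1.56 at week 10 and 45.7, 45.4 and 43.7 at week 12. All of these were low, a PyMT sample at week 6 and an FVB sample at week 10 held almost no reads, and Xrcc3 did not pass the test, at 0.47 ± 0.48 (SE), adjusted p = 0.439. Xrcc2, which acts at the same step, did pass, at 0.80 ± 0.23 (adjusted p = 0.00656). So did Rad54l, a translocase that helps the broken end invade the sister strand, at 1.36 ± 0.29 (adjusted p = 0.000548), with 75.0 to 325 normalized counts in PyMT and 18.6 to 116 in FVB. Rad54l shares 15.4% of its exonic length with Lrrc41 on the opposite strand, and the strand setting of the counting is not given in the sources used here. Rad51ap1, a stimulator of strand invasion, passed at 1.21 ± 0.50 (adjusted p = 0.0461), and missed the threshold in 19 of 35 alternatives, where its adjusted p reached 0.133. Palb2, the bridge between Brca1 and Brca2, and Bard1 did not pass, at log2 fold changes of 0.54 ± 0.34 and 0.98 ± 0.48.

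In the Fanconi anemia pathway a core complex (Fanca, Fancb, Fancc, Fancg and Fancl among its subunits, with Fancm holding it on DNA) ubiquitinates the Fancd2 and Fanci pair, which then opens the way to the crosslink. Of the 8 genes, 4 were higher in PyMT and 1 was lower, where 23.6% of all genes tested were higher and 27.4% lower. Both members of the substrate pair were higher. Fanci counts were 199, 114 and 229 at week 6, 165, 203 and 199.97 at week 8, 198, 183 and 129 at week 10 and 192, 177 and 218 at week 12 in PyMT. In FVB they were 4.64, 194 and 87.2 at week 6, 27.8, 79.1 and 65.5 at week 8, 11.5, 108.2 and 26.6 at week 10 and 6.73, 51.7 and 5.47 at week 12. PyMT values lay between 114 and 229, and FVB values ran from near 0 up to the middle of the PyMT range, with the groups apart at weeks 8, 10 and 12. The log2 fold change of Fanci was 1.92 ± 0.45 (SE), adjusted p = 0.00118. Fanci shares 14.8% of its exonic length with Polg on the opposite strand. Fancd2 differed by 1.67 ± 0.46 (adjusted p = 0.00423), with 72.5 to 222 normalized counts in PyMT and 0 to 142 in FVB.

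Within the core complex the subunits did not move together. Fanca was 3.33-fold higher (1.74 ± 0.39 (SE), adjusted p = 0.000903), and Fancm differed by 0.78 ± 0.17 (adjusted p = 0.000613). Fancl, the ubiquitin ligase subunit, did not pass at 0.78 ± 0.36 (adjusted p = 0.0791), nor did Fancb at 0.44 ± 0.33 or Fancg at 0.07 ± 0.26. Fancc was lower. Its PyMT counts were 68.5, 137 and 77.2 at week 6, 89.7, 76.9 and 119.98 at week 8, 157, 97.5 and 104 at week 10 and 77.1, 115 and 83.2 at week 12. Its FVB counts were 196, 129 and 212 at week 6, 49.2, 243 and 197 at week 8, 119, 259 and 73.5 at week 10 and 139, 183 and 163 at week 12. The groups overlapped at 3 of the 4 weeks and lay apart at week 12, with PyMT below. The log2 fold change of Fancc was -0.69 ± 0.25 (SE), adjusted p = 0.0249. That call was lost without FVB week 8 replicate 2 (-0.59, adjusted p = 0.0579), without FVB week 10 replicate 2 (-0.53, adjusted p = 0.067), with no filter on low counts (-0.67, adjusted p = 0.052) and with library size as the only scaling (-0.44, adjusted p = 0.189).

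**Figure D2:**
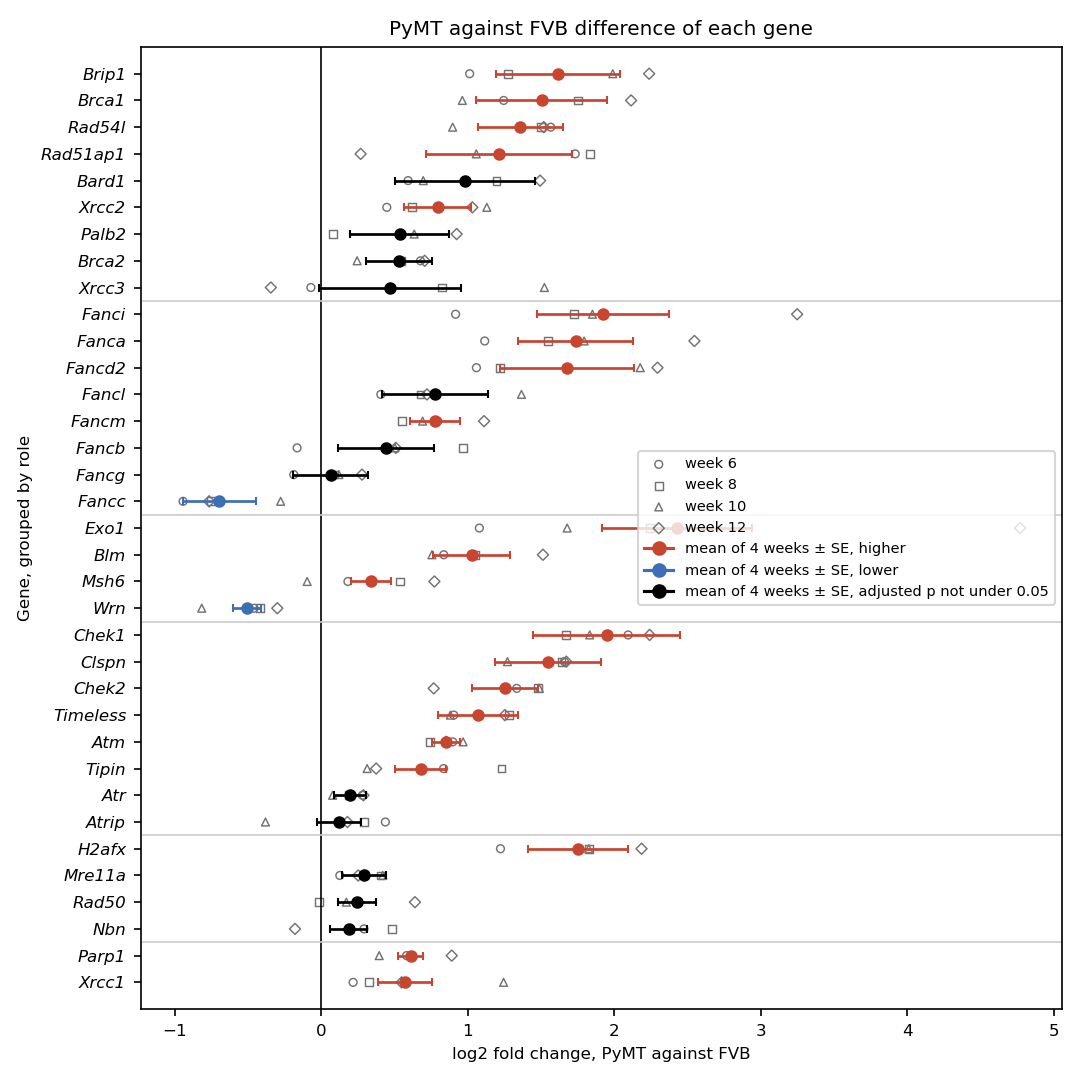
The horizontal axis is the log2 fold change, PyMT against FVB, and each row is a gene, grouped by role. Filled points with bars are the mean over 4 weeks with its SE, coloured where the adjusted p was under 0.05, and open symbols are the 4 weekly values. Values reach 2.43 for Exo1, and Fancc and Wrn are the only genes with coloured points left of 0.

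Among the enzymes that process DNA structures, Exo1 and Wrn stood at the ends of the range. Exo1, an exonuclease of end resection and mismatch repair, lies at chr1:177810909-177841527, forward strand, on mm9. Its PyMT counts were 91.7, 249 and 252 at week 6, 186, 89.1 and 236 at week 8, 218, 99.6 and 116 at week 10 and 156, 109 and 167 at week 12. Its FVB counts were 26.7, 147 and 105 at week 6, 6.31, 50.01 and 53.1 at week 8, 13.7, 126.2 and 0 at week 10 and 2.69, 10.1 and 3.28 at week 12. All 3 FVB mice of week 12 lay at 10.1 or below, and the groups did not overlap at weeks 8 and 12. Exo1 had a log2 fold change of 2.43 ± 0.51 (SE), adjusted p = 0.000465, the largest of the 35, and 4.77 ± 0.61 (SE), adjusted p = 0.00111 at week 12 alone.

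Wrn, a helicase of the same RecQ family as Blm, lies at chr8:34344856-34495999, reverse strand, on mm9. In PyMT its counts were 304, 309.7 and 312 at week 6, 345, 334 and 298 at week 8, 286, 305 and 363 at week 10 and 464, 306 and 312 at week 12. In FVB they were 446, 437 and 382 at week 6, 489, 429 and 394 at week 8, 454, 631 and 659 at week 10 and 453, 428 and 491 at week 12. Wrn was steady in both genotypes, and at weeks 6, 8 and 10 every PyMT sample lay below every FVB sample. Its log2 fold change was -0.51 ± 0.10 (SE), adjusted p = 0.000142, and it was the same in direction at every week (-0.46, -0.41, -0.81 and -0.30). Under library size as the only scaling, which moves the median of all genes from -0.03 to 0.26, the value was -0.21 and did not pass (adjusted p = 0.0992). Blm, which unwinds recombination intermediates, went the other way, at 1.03 ± 0.26 (adjusted p = 0.00256). Msh6, a subunit of a complex that recognises mismatches, passed narrowly at 0.34 ± 0.14 (adjusted p = 0.0455), and missed the threshold in 17 of 35 alternatives other than a 2-fold limit, where its adjusted p went up to 0.116.

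Of the 8 checkpoint genes, 6 were higher in PyMT and none was lower, where 23.6% of all genes tested were higher and 27.4% lower. In Chek1, Chek2 and Atm all 12 PyMT samples lay above all 12 FVB samples. The share of all genes tested that separated in this way is not given here, so this is not read as particular to them. Chek1, the kinase that answers to Atr, lies at chr9:36516067-36534650, reverse strand, on mm9. Its PyMT counts were 124, 162 and 197 at week 6, 121, 143 and 147 at week 8, 137, 252 and 115 at week 10 and 96.6, 115 and 118 at week 12. Its FVB counts were 4.64, 47.8 and 59.9 at week 6, 1.26, 68.6 and 59.9 at week 8, 48.1, 95.2 and 0 at week 10 and 25.6, 20.2 and 26.2 at week 12. The lowest PyMT sample stood just above the highest FVB sample, and the FVB values ran down to 0. The log2 fold change of Chek1 was 1.95 ± 0.50 (SE), adjusted p = 0.00272.

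Chek2, the kinase that answers to Atm, lies at chr5:111269036-111303152, forward strand, on mm9. In PyMT its counts were 313, 270.1 and 347 at week 6, 261, 386 and 369.9 at week 8, 404, 342 and 305 at week 10 and 252, 287 and 243 at week 12. In FVB they were 88.1, 118 and 162 at week 6, 136, 91.9 and 140.1 at week 8, 168, 191 and 23.5 at week 10 and 178, 174 and 124 at week 12. The groups lay apart at every week, and the lowest FVB value was again in week 10 replicate 3. Chek2 had a log2 fold change of 1.25 ± 0.22 (SE), adjusted p = 7.52e-05.

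Atm, the kinase that double-strand breaks activate, lies at chr9:53247254-53344845, reverse strand, on mm9. In PyMT its counts were 1346, 1417 and 1252 at week 6, 1317, 955 and 1142 at week 8, 1319, 1591 and 1125 at week 10 and 1432, 1240.5 and 1152 at week 12. In FVB they were 596, 801 and 747 at week 6, 542, 837 and 685 at week 8, 856, 618 and 653 at week 10 and 666, 824 and 698 at week 12. Both bands were narrow (coefficient of variation 0.132 over 12 PyMT and 0.144 over 12 FVB samples), and the lowest PyMT sample (955) lay above the highest FVB sample (856). The log2 fold change of Atm was 0.85 ± 0.09 (SE), adjusted p = 1.91e-07, the smallest adjusted p of the 35 genes, and its weekly values were 0.90, 0.74, 0.97 and 0.85. Each was under a 2-fold change, so Atm could be called at no single week. At week 8 its adjusted p was not under 0.05 either.

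The kinase Atr and its partner did not share this. Atr, which answers to single-stranded DNA at stalled forks, had a log2 fold change of 0.20 ± 0.11 (adjusted p = 0.139). Its partner Atrip had PyMT counts of 165, 239 and 181 at week 6, 176, 105 and 142 at week 8, 138, 97.5 and 114 at week 10 and 183, 135 and 165 at week 12. The FVB counts of Atrip were 183, 105 and 140.1 at week 6, 111, 123 and 116 at week 8, 142, 151 and 180.0 at week 10 and 114, 159 and 167 at week 12. The groups overlapped at weeks 6, 8 and 12, and at week 10 the PyMT samples lay below the FVB samples. Atrip did not pass the test, at a log2 fold change of 0.12 ± 0.15 (SE), adjusted p = 0.529. Atrip shares 25.8% of its exonic length with Trex1 on the same strand, so its counts are uncertain. Downstream of Atr, the adaptor Clspn, which hands the signal to Chek1, was 2.93-fold higher (1.55 ± 0.36, adjusted p = 0.00114). Timeless and Tipin, which together hold the replication fork steady, differed by 1.07 ± 0.27 (adjusted p = 0.00266) and 0.68 ± 0.18 (adjusted p = 0.00282), and 11 of the 12 PyMT samples lay above every FVB sample for Timeless.

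**Figure D3:**
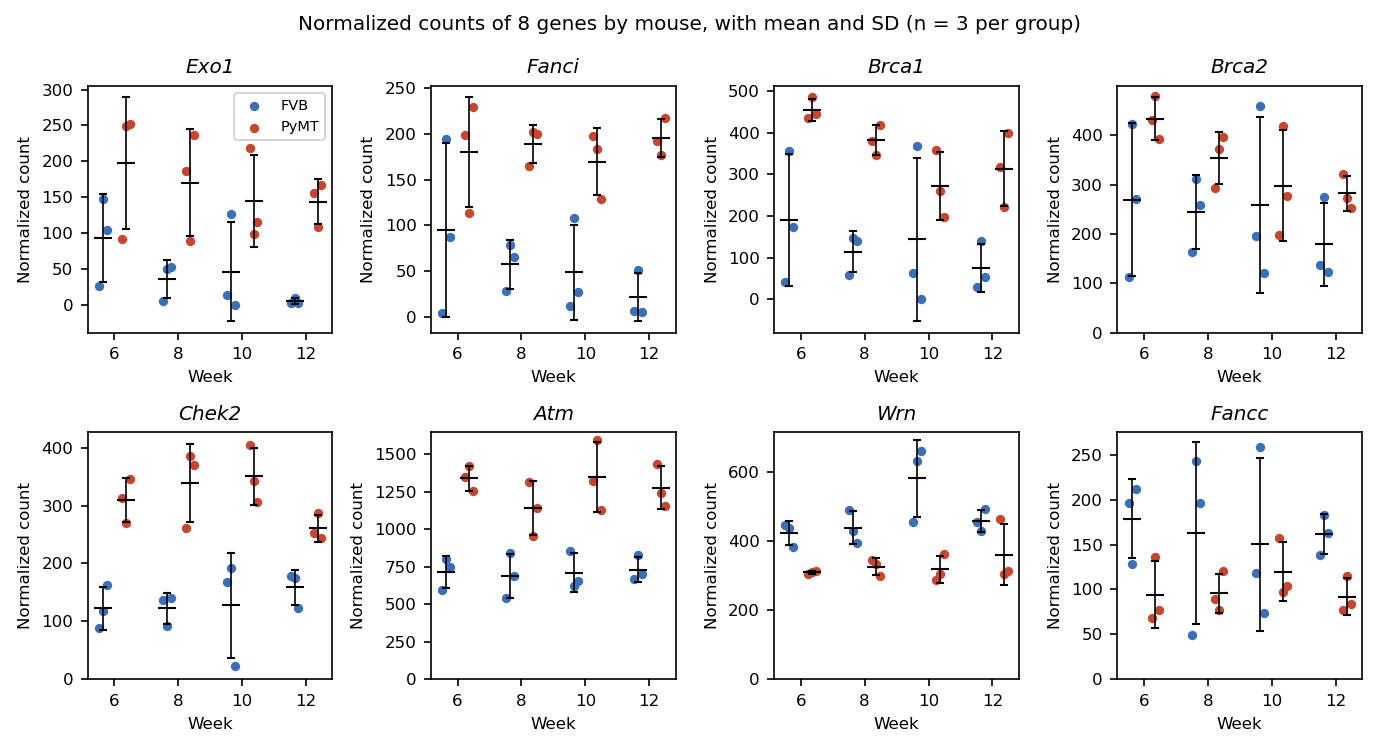
Each panel gives the normalized count (vertical axis) of 1 gene at weeks 6, 8, 10 and 12, with a point for each mouse, FVB in blue and PyMT in red, and a bar for the mean and SD of 3 mice. Atm and Chek2 show separate bands for the genotypes at every week, Exo1, Fanci and Brca1 show FVB points spread from near 0 upward, Brca2 overlaps at every week, and in Wrn and Fancc the mean of the FVB samples is the higher.

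Among the 4 sensors of breaks only H2afx was called, a share near the 23.6% of all genes that were higher in the 4-week mean. H2afx encodes the histone variant that is phosphorylated in the chromatin beside a break, and lies at chr9:44142798-44144154, forward strand, on mm9. Its PyMT counts were 729, 804 and 1055 at week 6, 589.6, 794 and 1123 at week 8, 874, 649 and 561 at week 10 and 607, 404 and 717 at week 12. Its FVB counts were 138, 514 and 455 at week 6, 39.1, 273 and 402 at week 8, 114, 449.9 and 42.2 at week 10 and 83.4, 194 and 115 at week 12. The groups lay apart at every week, and 11 of the 12 PyMT samples exceeded every FVB sample. H2afx had a log2 fold change of 1.75 ± 0.34 (SE), adjusted p = 0.000209. The 3 genes of the complex that binds the broken ends did not pass, with 0.29 ± 0.15 for the nuclease Mre11a (adjusted p = 0.108), 0.25 ± 0.13 for the tether Rad50 (adjusted p = 0.118) and 0.19 ± 0.12 for Nbn (adjusted p = 0.22). All 3 passed with library size as the only scaling, as did Atr and Atrip, with log2 fold changes from 0.42 (Atrip) to 0.55 (Mre11a), where the median of all genes was 0.26. The PyMT counts of Nbn were 262, 390.0 and 309 at week 6, 259.5, 369 and 254 at week 8, 226, 380.4 and 256 at week 10 and 211, 220.1 and 227 at week 12. The FVB counts of Nbn were 306, 280.0 and 192 at week 6, 241, 213 and 181 at week 8, 293, 243 and 236 at week 10 and 243, 221 and 306 at week 12. The genotypes of Nbn overlapped at weeks 6, 10 and 12 and lay apart at week 8, where the FVB samples were lower.

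Both genes of single-strand break repair were higher in the 4-week mean, where 23.6% of all genes were. Parp1, which marks nicks with poly(ADP-ribose), had PyMT counts of 1475, 1249 and 1404 at week 6, 1260.3, 1566 and 1337 at week 8, 1299.9, 1162 and 1082 at week 10 and 1232, 979 and 1156 at week 12. In FVB its counts were 913, 1026 and 806 at week 6, 919.7, 1027 and 787 at week 8, 876, 827 and 1092 at week 10 and 725, 486 and 665 at week 12. The genotypes lay apart at weeks 6, 8 and 12, and 10 of the 12 PyMT samples exceeded every FVB sample. Parp1 had a log2 fold change of 0.61 ± 0.08 (SE), adjusted p = 4.09e-06. Xrcc1, the scaffold that Parp1 activity recruits, had counts of 418, 247 and 340.4 at week 6, 363, 294 and 369 at week 8, 318, 489 and 357 at week 10 and 237, 364 and 566 at week 12 in PyMT. In FVB its counts were 227, 349 and 286 at week 6, 284, 269 and 275 at week 8, 128, 298 and 79.8 at week 10 and 248, 311 and 270.1 at week 12. The groups of Xrcc1 overlapped at weeks 6 and 12, and its log2 fold change was 0.57 ± 0.18 (SE), adjusted p = 0.013.

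Per kilobase of exon, where levels of different genes can be compared, H2afx was the highest member in PyMT with a median of 533 normalized counts, followed by Parp1 (326), Tipin (179), Xrcc1 (167) and Chek2 (138). In FVB the order began with Parp1 (221), Xrcc1 (126.4), H2afx (122), Rad50 (102) and Tipin (99.1). The lowest medians were those of Fancc in PyMT (11.9) and Exo1 in FVB (3.66).

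At single weeks a call needed an adjusted p under 0.05 and more than a 2-fold change. At week 6 Chek2 alone of the 35 was called higher (1.33 ± 0.32 (SE), adjusted p = 0.0314), where 3.58% of all genes were, and no member was called lower, where 6.46% of all genes were. DESeq2 called 5 there and limma's voom with sample weights 2. The shares of all genes given by week are those of edgeR with TMM scaling. Counts of members from other tools or settings cannot be set against them. At week 8 Brca1 (1.75 ± 0.39 (SE), adjusted p = 0.0273), Chek2 (1.48 ± 0.31 (SE), adjusted p = 0.023) and Tipin (1.23 ± 0.31 (SE), adjusted p = 0.042) were called higher, beside 3.57% of all genes, and none lower, beside 6.37%. At that week DESeq2 called 12 members higher, voom 10 and edgeR on counts divided by the packet size 11. At week 10 no member was called higher (4.83% of all genes) or lower (9.09%) by edgeR, and 5 (14.3%) had an unadjusted p under 0.05 in either direction, a smaller share than the 30.5% of all genes. DESeq2 called 1 member higher at week 10, voom 5 and edgeR on counts divided by the packet size 4. At week 12, the late carcinoma stage, 10 members were called higher, beside 7.75% of all genes, and none lower, beside 13.0%. The 10 were Brca1, Brip1, Xrcc2, Fanca, Fanci, Fancm, Blm, Exo1, Chek1 and H2afx, with log2 fold changes from 1.03 (Xrcc2) to 4.77 (Exo1). Brca1 and Chek2 were the only members called at more than 1 week.

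The weekly counts leaned on single libraries. The week 6 call was lost without PyMT replicate 1, FVB replicate 1, FVB replicate 2 or PyMT replicate 3, and 2 members passed without PyMT replicate 2. At week 8, 5 members passed without FVB replicate 1, 1 without PyMT replicate 2 and 0 without PyMT replicate 1, FVB replicate 2, PyMT replicate 3 or FVB replicate 3. At week 10 the count was 5 without FVB replicate 2, 2 without FVB replicate 3, and 1 without FVB replicate 1 or PyMT replicate 3. At week 12 it fell to 6 without PyMT replicate 3 and was between 6 and 14 over all 6 samples left out in turn. The 4-week mean held between 19 and 24 members higher over all 24 samples left out in turn.

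The difference itself did not change detectably with stage. None of the 35 passed the test of a change in the PyMT against FVB difference from week 6 to week 12, where 0% of all genes did, and 1 (Exo1) had an unadjusted p under 0.05, as did 4.63% of all genes. None passed from week 8 to week 10, the step from adenoma to carcinoma, where 0.00670% of all genes did, and none had an unadjusted p under 0.05, where 3.57% of all genes had. DESeq2 and voom also called 0 members in both. Exo1 had the largest change from week 6 to week 12, 3.67 ± 1.46 on the log2 scale (adjusted p = 0.973). Within PyMT, week 12 against week 6 gave no member (0% of all genes), with 25 of 35 values negative and 1 unadjusted p under 0.05 (6.73% of all genes), and DESeq2 and voom called 0. Within FVB the same step gave none either (0% of all genes), with 31 of 35 values negative and 6 unadjusted p under 0.05 (17.1%, against 4.19% of all genes). DESeq2 called 1 member lower there and voom 0. The FVB values leaned on single libraries. Without FVB week 6 replicate 2, 13 of 35 were positive instead of 4, and the median log2 fold change was -0.145 instead of -0.411. Over single samples left out in turn, that median ran from -0.571 to -0.145. The value for Exo1 in FVB was -4.12 ± 1.15 (adjusted p = 0.775), and in PyMT -0.45 ± 0.94 (adjusted p = 0.998). These comparisons share samples with one another.

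The members varied more between FVB mice than between PyMT mice. The coefficient of variation of normalized counts over 12 samples was larger in FVB for 31 of the 35, with medians of 0.494 in FVB and 0.256 in PyMT, against 0.345 and 0.301 over all genes tested. It reached 1.16 for Exo1, 1.01 for Fanci, 0.933 for Fanca and 0.922 for Brca1 in FVB. It was 0.144 for Atm, 0.172 for Nbn, 0.181 for Wrn, 0.187 for Atr and 0.201 for Parp1. The FVB spread had an order by mouse: FVB week 6 replicate 2 held the highest FVB value of 13 members and week 10 replicate 2 that of 12, while week 10 replicate 3 held the lowest of 16. Across the 35 genes the coefficient of variation in FVB and the mean log2 fold change had a Spearman rho of 0.79, as a description. The genes are not independent replicates and share their libraries. The FVB level enters both quantities, so a positive rho is partly built in, and no rho over all genes is given.

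Proliferation markers differed between mice of one genotype as well. Their mean of log2(normalized count + 1) ran from 8.65 to 9.63 over 12 PyMT samples. Over FVB it fell into 2 sets of 6, from 2.29 to 5.17 and from 6.77 to 8.62, with FVB week 10 replicate 3 lowest and FVB week 6 replicate 2 highest, so no correlation is given over the 12 FVB samples together. In PyMT 28 of 35 members had a positive Pearson r with the markers (median 0.39), against 50.3% of all genes tested (median 0.00233). None passed after adjustment over all genes tested, where 0.0469% of all genes did, and 9 had a positive r and an unadjusted permutation p under 0.05, as 4.51% of all genes had. The members and markers share their libraries. By Pearson r H2afx came nearest, with r = 0.889 (permutation p = 9e-05, adjusted p = 0.061). Its Spearman rho was 0.881 (permutation p = 0.00033, adjusted p = 0.134), and its r was 0.801 when the 2 samples most distant from the marker median were left out. Clspn followed with r = 0.837 (adjusted p = 0.151) and Brca1 with r = 0.806 (adjusted p = 0.188), by the same permutation test. By Spearman rho Rad51ap1 came nearest, at 0.909 (permutation p = 9e-05, adjusted p = 0.103). The Pearson r of Rad51ap1 was 0.587 (permutation test, adjusted p = 0.592). Within the 6 PyMT libraries with packets the median r was 0.375, and within the 6 others 0.445.

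Within the 6 FVB samples of the lower set the median r was 0.445, with 26 of 35 members positive, and within the upper set 0.119, with 19 positive. In the lower set 4 members had a positive r and an exact permutation p under 0.05 and 2 a negative one, and in the upper set 1 and 1, before any adjustment. H2afx had r = 0.976 in the lower set (exact permutation p = 0.00833) and 0.535 in the upper (exact permutation p = 0.3). Each set held libraries with packets, 3 of 6 and 4 of 6. Shares of all genes were not computed for these sets. With 6 samples and a narrowed range of markers in each, the values are not read as a trait of the members.

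**Figure D4:**
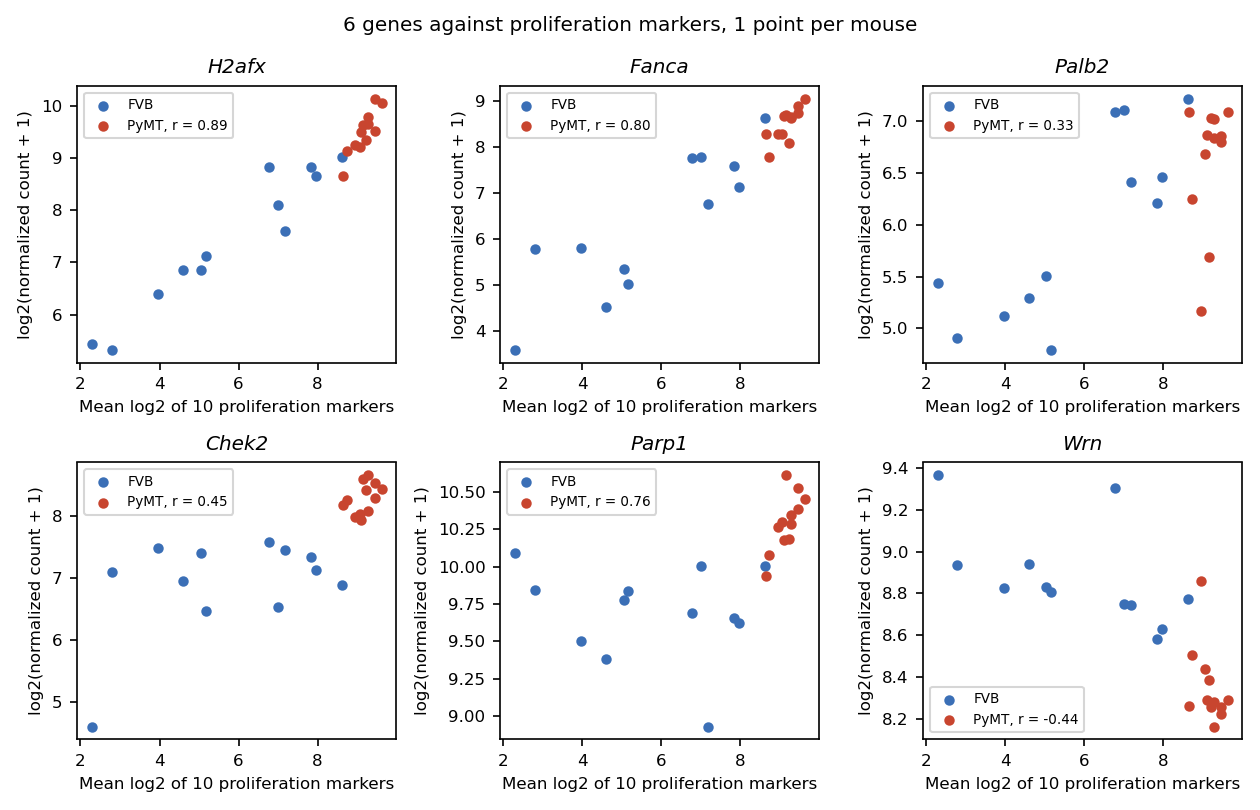
Each panel sets log2(normalized count + 1) of 1 gene (vertical axis) against the mean of 10 proliferation markers on the same scale (horizontal axis), with a point for each of 12 FVB mice in blue and 12 PyMT mice in red. FVB points lie in 2 sets along the horizontal axis. H2afx and Fanca points rise across the panel, the PyMT points of Chek2 lie above all FVB points, and the PyMT points of Wrn lie mostly below the FVB points.

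Promoter sequence was looked at because many S-phase genes carry sites for E2F factors, the activators released when the cell enters division. RefSeq promoters (GRCm38.p6, 250 bases before to 50 after the start) were matched to 27 of the 35 members by symbol. No promoter was matched for Xrcc2, Fancd2, Wrn, Exo1, Tipin, H2afx, Nbn and Rad50. The motif counts therefore leave out Exo1, which had the largest difference, and Wrn, which was lower. An E2F motif (TTTCCCGC, TTTCGCGC, TTTGCCGC or TTTGGCGC on either strand) was found in 6 of the 27 (22.2%), against 2.26% of 32851 promoters. No match of one motif can lie inside a match of another. The 6 were Bard1, Fancg, Chek2, Brca2, Clspn and Msh6. Only 3 of them were higher in the 4-week mean, as were 13 of the 21 members without a match. The CCAAT box, on either strand, stood in 18 of 27 (66.7%), against 37.4% of all promoters, and the CHR element (TTTGAA, either strand) in 1 of 27 (3.70%), against 17.9%. CCAAT boxes also stood in Xrcc3, which had the smallest recombination difference and was not called, and in Fancc, which was lower. A match is a description and not a site. Each member was counted once if any promoter of its own matched, while the shares of all promoters count every promoter. The base makeup of the promoters was not compared. The 4 stretches with an E2F motif before the start are printed with 20 bases on each side, 5′ to 3′ on the strand of the gene, and Brip1, the recombination gene with the largest difference, is printed for its 3 CCAAT boxes. The capitals mark the motif, read here on either strand.
Bard1, chr1:71103154-71103201, reverse strand: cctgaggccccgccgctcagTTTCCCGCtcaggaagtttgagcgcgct
Fancg, chr4:43010326-43010373, reverse strand: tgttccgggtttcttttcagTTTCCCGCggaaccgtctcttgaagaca
Chek2, chr5:110839811-110839858, forward strand: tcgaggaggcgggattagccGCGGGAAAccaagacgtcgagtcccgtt
Brca2, chr5:150522433-150522480, forward strand: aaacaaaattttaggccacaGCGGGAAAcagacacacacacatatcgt
Brip1, chr11:86201213-86201302, reverse strand: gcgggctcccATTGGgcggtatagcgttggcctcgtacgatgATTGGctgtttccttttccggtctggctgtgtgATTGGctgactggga
The first base of the motif lay at -152 from the start in Chek2, which was higher in PyMT, and at -209 in Bard1, -168 in Brca2 and -52 in Fancg, which did not pass the test of the mean difference.

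The other genes of the repair pathways, from lists of the same kind, are given beside the 23.6% of all genes that were higher and the 27.4% that were lower in the 4-week mean. Of 23 further recombination and Fanconi identifiers tested, for 22 symbols, 10 were higher and 0 lower (Rad54b has 2 identifiers, 1 of them called), with a median log2 fold change of 0.54. Eme1, a partner of a structure-cutting nuclease, was among them at 2.07 ± 0.68 (adjusted p = 0.0151). Of 16 further checkpoint genes 8 were higher and 0 lower, with the phosphatases Cdc25c (2.39 ± 0.73, adjusted p = 0.00931) and Cdc25a (1.16 ± 0.26, adjusted p = 0.000743) the largest. Mismatch repair gave 3 higher and 0 lower of 6, with Pms1 (0.95 ± 0.24, adjusted p = 0.00215) among the higher.

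End joining and both kinds of excision repair held genes called in each direction. Of 9 end joining genes 4 were higher and 2 lower. Nhej1, a ligation factor, had the largest value there (1.67 ± 0.55, adjusted p = 0.0145), though its PyMT and FVB ranges, 7.12 to 48.9 and 0 to 49.8 normalized counts, overlapped almost wholly, and Xrcc5, the larger Ku subunit, followed (0.86 ± 0.22, adjusted p = 0.00251). Of 14 base excision genes 7 were higher and 1 lower, and the 2 largest were glycosylases of 1 family that went opposite ways, Neil3 higher (2.23 ± 0.66, adjusted p = 0.00789) and Neil2 lower (-2.29 ± 0.87, adjusted p = 0.0329). Neil2 was low throughout, with 0 to 43.6 normalized counts in PyMT and 0 to 59.1 in FVB. Of 13 nucleotide excision genes 4 were higher and 3 lower, shares near those of all genes. The helicase Ercc2 was higher (1.28 ± 0.15, adjusted p = 4.08e-07), with 515 to 1012 normalized counts in PyMT and 90.7 to 421 in FVB, while the nuclease subunit Ercc1 was lower (-0.57 ± 0.19, adjusted p = 0.0154).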

How the data were processed

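RNA of mammary tissue from 24 mice was sequenced with directional libraries after removal of ribosomal RNA. Per the authors, GSNAP placed the reads on mm9 and HTSeq summed them by Ensembl gene, and the deposited values are these raw counts, not normalized. Whether the counting used strand is not given in the sources used here. The members and all lists were chosen with earlier results of these data known. Coordinates came from GENCODE M1 (mm9) and promoters from RefSeq (GRCm38.p6).

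Differences were fitted with edgeR 4.0.16 in R 4.3.3 (quasi-likelihood test, TMM scaling, Benjamini-Hochberg adjustment) over the 14918 genes that reached a CPM of 1 in 12 or more samples. Each week set 3 PyMT against 3 FVB samples. The mean of the 4 weekly differences and the changes between weeks came from 1 fit of 24 samples in 8 groups. The SE is the size of a log2 fold change over the square root of its F statistic. Normalized counts are counts over DESeq2 1.42.0 size factors. Correlations used two-sided permutation tests (100000 resamples, or all 720 orders of 6 samples; Python 3.11.15, NumPy 2.4.6), adjusted over all genes tested and not, as first planned, over the members. The planned correlation over 12 FVB samples is not reported, because the markers fell into 2 sets. The fits were tested on simulated data.

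Values in every sample are given for the members with the largest and smallest mean difference in each role, those called lower, Brca1 and Brca2. Chek2 and Atm were added after their values were seen. In the other repair lists the 2 called genes with the largest change are named, apart from genes that are not reported here. Replicates were checked for duplicates by a chi-square per gene (20.4 to 238 over 24 pairs, far from copies). Alternatives were other scalings, filters and tests (limma 3.58.1 voom among them), a replicate block, counts divided by the packet size, subsets of libraries and each sample left out in turn.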

Additional observations from a re-analysis of the deposited data

How the results depend on the processing

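Of the 21 members higher in the 4-week mean, 18 were called in every alternative other than a 2-fold limit, between 19 and 24 members were called with 1 of the 24 samples left out, and 28 with library size as the only scaling, while Rad51ap1, Msh6 and Brip1 lost the call in some. Of the 12 members not called, 8 passed in at least 1 alternative. Lower calls numbered 2 (Fancc and Wrn) and became 0 with library size as the only scaling, 1 with no filter on low counts, 0 with a fold change above 2 required, and 1 to 2 with a sample left out. Week 6 calls numbered 1 and became 2 with library size, 5 with DESeq2, 2 with voom, 0 with the replicate block, 2 with no fold limit and 0 to 2 with a sample left out. Week 8 calls numbered 3 and became 5 with library size, 12 with DESeq2, 10 with voom, 8 with no filter, 11 with counts divided by the packet size and 0 to 5 with a sample left out. Week 10 calls numbered 0 and became 1 with library size, 1 with DESeq2, 5 with voom, 1 with the replicate block, 4 with counts divided by the packet size, 2 in the fit of 24 samples, 1 with no fold limit and 0 to 5 with a sample left out. Week 12 calls numbered 10 and became 17 with library size, 5 in the fit of 24 samples and 6 to 14 with a sample left out. For FVB week 12 against week 6, DESeq2 and counts divided by the packet size each called 1 member lower instead of 0. The PyMT correlation called 0 members, and 0 to 1 with a sample left out, 1 without PyMT week 10 replicate 2, which was tried after seeing the data. Deviations of same-numbered PyMT and FVB samples of a week had r from -0.03 to 0.18, above 0 in 10 of 12 pairs and over 0.1 in 4, against -0.133 to 0.091 for 24 pairs of other numbers, and 14 of 24 samples correlated best with their own number. The labels do not say that a number marks a shared litter or day, so the samples were not taken as paired. With the replicate block Brca2 was called (0.627, adjusted p = 0.0073) and the week 6 call of Chek2 was lost. Week 10 calls went from 0 to 1, and no other count changed by more than 1.5 times. Among single values, 3 changed sign: Xrcc3 to -0.009 in libraries without packets, and Fancg to -0.061 without FVB week 10 replicate 1 and -0.022 without PyMT week 10 replicate 3 (range -0.061 to 0.18 with a sample left out), and neither gene was called. Leaving out the 4 FVB libraries richest in muscle markers, tried after seeing the data, gave 20 higher and 2 lower. The cause of these changes was not tested. Shares of all genes under these alternatives are not given here, so the changed counts of members have no background beside them. Other scalings of the FVB correlation were not run. With 3 mice a group and packets of up to 25 reads, low counts are less precise than their number of reads would give.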
